A study of Homo sapiens with 12 samples.

Results

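The probe sets described here are rows of the value table that carry no gene symbol in the array's probe-to-gene table and whose mean log2 value over all 12 arrays was at least 6. They numbered 16145, of 1038473 probe sets without a symbol and 1411399 probe sets in all. They made up 44.2% of the 36519 probe sets with a mean of at least 6, beside 19145 that carry exactly 1 symbol and 1229 that carry several. They were thus selected on measured values, the mean over all arrays, so brightness is given only as a description. The changes between groups, which do not enter the rule, were tested. The mean includes the arrays of every comparison, however, so a probe set can reach the limit through 1 group in which it was high.

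The arrays were hybridised with biotin-labelled material from the cytoplasm of U2OS, an osteosarcoma cell line of human origin. In every group the cells stably carried K294A, an inactive form of the mRNA capping enzyme, under doxycycline control. Each group had 3 arrays: cells without induction whose RNA was left untreated, cells without induction whose RNA was digested in vitro with Xrn1, and the same pair after induction with doxycycline (1 ug/ml, 24 h). All RNA had first been depleted of ribosomal RNA. The labels call the arrays of a group biological replicates; whether they came from separate cultures, and whether the line is 1 clone, is not given in the sources used here, so the p-values measure the spread between these samples, which may be technical.

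Xrn1 is an exonuclease that degrades RNA from the 5' end when that end carries a monophosphate, whereas a cap protects an RNA from it. The capping enzyme adds the first part of the cap, and a cytoplasmic pool of it can restore caps to RNAs that have lost them, which the inactive form is used to block. Exon arrays carry, beside probe sets for the exons of known genes, a large body of probe sets for predicted or weakly supported exons, many of which were never tied to a gene name. Whether the signal of bright probe sets of that kind follows Xrn1 as that of named genes does can be read from the array values. Which RNAs they detect cannot.

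A probe set is therefore named here by its numeric ID. The table pairs none of these IDs with a gene, accession or sequence. IDs largely follow gene order: when the symbol of each of the 357604 single-symbol probe sets was hidden, 84.9% had the same symbol on both sides within 10 IDs, and in 99.9% of those it was their own. A neighbour's symbol is given below only where it lies within 10 IDs, as a description of the neighbour. It assigns no gene to the probe set, which may lie in an intron, on the other strand or in another transcript.

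The array medians over all probe sets lay between 2.09 and 2.25 on the log2 scale. Of the markers of mesenchymal and bone-forming cells, COL1A1 (array medians of its probe sets 8.18 to 9.35), SPARC (6.65 to 9.72) and VIM (5.31 to 7.61) were bright. FN1 (3.90 to 8.19, with a mean of 5.86) and CDH2 were intermediate, and RUNX2, COL1A2 and ALPL stayed at or below 3.60. The 9 measured markers of blood, liver, nerve, epithelial and other cell types stayed at or below 3.79. Over the 16145 probe sets, arrays of a group correlated at 0.852 to 0.921 for uninduced untreated, 0.876 to 0.975 for uninduced Xrn1, 0.892 to 0.909 for induced untreated and 0.915 to 0.946 for induced Xrn1, while uninduced untreated and induced untreated arrays correlated at 0.771 to 0.932 with each other.

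The means of the 16145 probe sets reached 13.55, with a median of 7.20, against a median of 7.0 for the 19145 single-symbol probe sets above the same limit. The limit divides a continuous range. The 904 probe sets with a mean of 6 to 6.1 had a median Xrn1 change of 1.04 in uninduced and 0.96 in induced cells (Xrn1 minus untreated, log2), and the 948 without symbol just outside, from 5.9 to 6, of 1.05 and 0.97. The spread between arrays of a group was much like that of named probe sets, with a median SD of 0.49 against 0.48.

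Taken as whole sets, probe sets without a symbol and with 1 symbol went opposite ways with Xrn1 in their medians. Parts of the single-symbol set rose too. With a mean of 10 to 11, their median change was 0.29 in uninduced and 0.11 in induced cells. For those with no other probe set of a mean of at least 6 within 5 IDs it was 0.33 and 0.34. On the 3 uninduced untreated arrays, the median level of the 16145 was 6.84, 6.58 and 7.13, and on the 3 uninduced Xrn1 arrays 7.65, 7.67 and 7.69. On the 3 induced untreated arrays it was 7.15, 6.96 and 7.33, and on the 3 induced Xrn1 arrays 7.66, 7.75 and 7.70. In both induction states every Xrn1 array lay above every untreated array. The single-symbol probe sets above the same limit had medians of 7.79, 7.62 and 7.69, then 6.62, 6.97 and 6.79 in uninduced cells, and 7.41, 7.69 and 7.52, then 6.79, 6.62 and 7.14 in induced cells, so there every Xrn1 array lay below every untreated array. The number of probe sets without a symbol at a level of 6 or more ranged from 13101 to 17857 without Xrn1 and from 21037 to 23719 with it, over 6 arrays each, while that of single-symbol probe sets was 20959 to 38061 and 16635 to 21846.

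**Figure D1:**
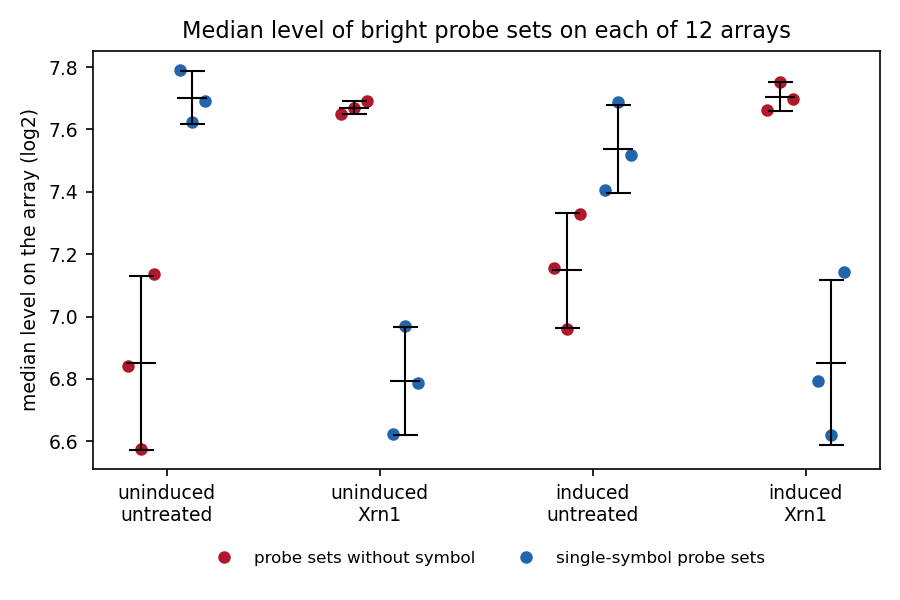
Median log2 level of the 16145 bright probe sets without symbol (red) and the 19145 bright single-symbol probe sets (blue) on each of the 12 arrays. Each point is 1 array, and the black bars give the mean and SD of the 3 arrays of a group; the axis does not start at 0. Red points lie higher on Xrn1 arrays than on untreated arrays and blue points lie lower.

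Xrn1 in uninduced cells compares digested with undigested RNA where K294A was not induced. The median change of the 16145 probe sets was 1.09 on the log2 scale, with quartiles of -0.12 and 1.92. It was -0.77 for the bright single-symbol probe sets and 0.18 for all 705699 probe sets tested, those with a mean above 2.04, the median over all probe sets. In limma with Benjamini-Hochberg adjustment over all probe sets tested, 6641 of the 16145 (41.1%) rose and 1973 (12.2%) fell, where 7.54% of all probe sets tested rose and 10.8% fell, 18.4% in either direction. All 16145 had passed that filter, because their limit on the mean is the higher one. Of the 19145 bright single-symbol probe sets, 14.1% rose and 41.4% fell. The values of the 3 Xrn1 arrays all lay above those of the untreated arrays for 56.1% of the 16145 and all below for 16.6%, against 17.2% and 15.5% of all probe sets tested.

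RMA gives every array the same distribution of probe values, so each rise is relative to the other RNAs on the array and need not be a gain of RNA. For the induction comparisons given below, fewer cells with a transcript and less of it per cell cannot be told apart in bulk RNA. The uninduced pair CM5 and CM5X had the lowest array weights of their groups, 0.370 and 0.526. Without them, 4479 rose and 1805 fell, with a median of 0.89. With each array centred the median was 1.0, and it was 1.08 after cyclic loess.

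The largest fall in uninduced cells was that of probe set 3407336. It stood at 10.06, 10.86 and 9.42 without and at 2.88, 2.68 and 4.07 with Xrn1, a change of -6.90 ± 0.52 (SE; limma adjusted p = 5.44e-08). Its levels in induced cells were 9.72, 10.29 and 9.76 against 4.19, 3.58 and 4.51, a change of -5.83, which was the largest fall there too. The groups lie far apart in both states, and no other probe set within 5 IDs was bright. On the 6 arrays that each comparison does not use, 3407336 averaged 7.01 and 6.66. Without the 3 uninduced untreated arrays, on which it was high, its mean lies below the limit of 6. The same holds without the 3 induced untreated arrays. Its falls are thus a description of a probe set chosen partly on those values.

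Probe set 3852837 came next, with 10.84, 11.07 and 10.57 on untreated arrays and 5.28, 2.18 and 4.53 after Xrn1 in uninduced cells, a change of -6.83 ± 0.63 (SE; limma adjusted p = 1.75e-07). The nearest named probe sets on both sides, 1 and 7 IDs away, carry ADGRE3, an adhesion G protein-coupled receptor of myeloid cells. It also fell in induced cells, by 4.44 (limma adjusted p = 5.72e-05), from 10.00, 10.79 and 9.47 to 6.32, 4.68 and 5.92.

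The largest rise was that of probe set 3103887, from 4.10, 2.91 and 4.98 without to 10.31, 9.67 and 9.39 with Xrn1, a change of 5.79 ± 0.53 (SE; limma adjusted p = 1.77e-07). In induced cells it went from 5.46, 6.52 and 5.59 to 7.44, 8.01 and 7.45, a change of 1.77 (limma adjusted p = 0.0306). Both changes passed and the groups did not overlap in either state; their difference did not pass (-4.02, limma adjusted p = 0.0669). The nearest named probe set, 1 ID away, carries PKM, the glycolytic enzyme pyruvate kinase, and 3 other probe sets within 5 IDs were bright. On the 6 induced arrays, which this comparison does not use, 3103887 averaged 6.74. Without the 3 uninduced Xrn1 arrays, on which it was high, its mean lies below the limit of 6. Its rise is thus a description of a probe set chosen partly on those values.

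Probe set 3071081 rose by 5.43 ± 0.71 (SE; limma adjusted p = 6.75e-06), from 2.59, 2.48 and 5.38 to 10.09, 7.84 and 8.81. Its named neighbours, 5 and 3 IDs away, both carry GRM8, a metabotropic glutamate receptor of nerve cells. In induced cells it was at 5.85, 4.84 and 7.43 without and at 6.84, 6.92 and 5.97 with Xrn1, values that overlap (change 0.54, limma adjusted p = 0.658). Those 6 arrays averaged 6.31. Without the 3 uninduced Xrn1 arrays, however, the mean of 3071081 also lies below the limit of 6, so the same limit holds for its rise.

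Xrn1 in induced cells asks the same after K294A was expressed. The median change of the 16145 probe sets was 0.74, against -0.34 for the bright single-symbol probe sets and 0.25 for all tested. In limma with Benjamini-Hochberg adjustment, 2845 of the 16145 (17.6%) rose and 1361 (8.43%) fell, where 6.89% of all probe sets tested rose and 5.52% fell, 12.4% in either direction. Of the single-symbol probe sets, 7.07% rose and 30.7% fell. The 3 arrays of each group did not overlap for 50.9% of the 16145 on the higher side and 15.7% on the lower, against 22.1% and 11.1% of all probe sets tested.

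The median of all probe sets tested was 0.25 in this comparison and moved to 0.06 after centring and 0.00 after cyclic loess. That of the 16145 was 0.55 after centring (2176 higher, 1610 lower) and 0.68 after loess (2663 higher, 1516 lower). Among all probe sets tested, 33134 were higher and 48949 lower after centring, and 24544 and 56765 after loess. Relative to the median of all tested, the 16145 lay 0.49 higher as deposited and 0.68 higher after loess. Centring shifts all probe sets of an array alike, so it leaves the 0.49 unchanged by construction. The count is less settled than in uninduced cells. It was 762 higher and 831 lower without induced untreated replicate 2, 524 and 616 without induced Xrn1 replicate 2, and 1037 and 1176 with the own spread of each probe set, so that in these cases more fell than rose. Over all probe sets tested, 6930 were higher and 19376 lower in the first case. In the second they were 6989 and 16276, and in the third 7033 and 16811. The median change of the 16145 stayed above 0, at 0.61, 0.72 and 0.74. Without induced untreated replicate 1 the count was 1570 higher and 1134 lower, without induced Xrn1 replicate 1 1158 and 898, and without induced Xrn1 replicate 3 1341 and 1097. Over all probe sets tested it was 28906 and 45545, 15777 and 26909, and 18385 and 25410 in the same order.

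The largest rise in induced cells was that of probe set 4030167, which stood at 2.78, 2.68 and 5.60 without Xrn1 and at 9.52, 10.76 and 11.20 with it, a change of 6.81 ± 0.73 (SE; limma adjusted p = 4.04e-06). In uninduced cells its values were 2.75, 5.79 and 3.66, then 6.18, 5.45 and 6.88, which overlap (change 2.10, limma adjusted p = 0.0439). Probe set 3545173 rose from 3.44, 2.78 and 6.41 to 9.53, 9.53 and 9.84, a change of 5.43 ± 0.65 (SE; limma adjusted p = 1.05e-05). VASH1, an angiogenesis inhibitor, is the symbol of its named neighbour 3 IDs away. On the 6 arrays that this comparison does not use, 4030167 averaged 5.12 and 3545173 averaged 5.84, below the limit of 6. Both were thus among the 16145 only through the induced Xrn1 arrays on which they were high, and their rises are a description of probe sets chosen partly on those values.

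After 3407336, the largest fall in induced cells was that of probe set 4037614, from 11.03, 9.20 and 11.19 to 5.13, 4.01 and 5.18, a change of -5.70 ± 0.82 (SE; limma adjusted p = 6.79e-05). It lies 3 IDs from a probe set of ND2 and 10 from a probe set of COX1, which are mitochondrially encoded subunits of respiratory complexes. In uninduced cells it went from 9.77, 12.46 and 9.53 to 4.48, 3.27 and 7.56, a change of -5.48.

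The comparisons with Xrn1 in uninduced and in induced cells have no array in common. Of the probe sets that rose in uninduced cells, 2483 also rose in induced cells, 37.4% of the 6641 and 87.3% of the 2845. Of those that fell, 1253 fell in both, 63.5% of the 1973 and 92.1% of the 1361, and 1 probe set passed with opposite signs. The changes had the same sign for 14739 probe sets (91.3%). Across the 16145 probe sets, which are not independent replicates and which were normalised together, both changes correlated at 0.882. Of the bright single-symbol probe sets, 89.9% had the same sign in both, with a correlation of 0.906. Their shared rises were 36.2% of those in uninduced and 72.1% of those in induced cells, and their shared falls 71.2% and 96.0%.

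**Figure D2:**
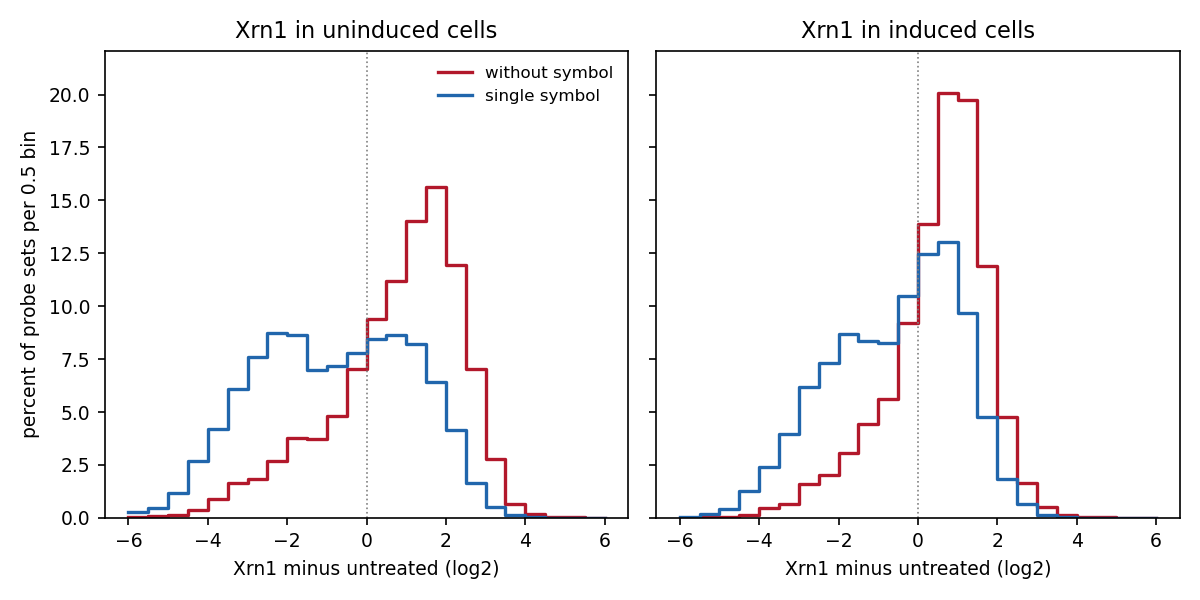
Share of probe sets by change with Xrn1 (log2, Xrn1 minus untreated, bins of 0.5, with changes beyond the axis counted in the end bins) in uninduced (left) and induced cells (right), for the 16145 bright probe sets without symbol (red) and the 19145 with 1 symbol (blue). The red peaks lie above 0, at 15.6% and 20.1% of probe sets, with a tail of falls; the blue distributions have a further hump below 0.

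The opposite median changes were compared at equal brightness. Each of the 16145 probe sets was set against the median of all single-symbol probe sets in the same 0.25-wide interval of the mean. In uninduced cells it lay above that median for 82.2% of probe sets, by a median of 1.82, and in induced cells for 78.9%, by a median of 1.09. Computed array by array, the same difference in level was -1.16, -1.22 and -0.66 on uninduced untreated arrays and 0.88, 0.52 and 0.75 on uninduced Xrn1 arrays. It was -0.37, -0.74 and -0.18 on induced untreated arrays and 0.67, 0.97 and 0.37 on induced Xrn1 arrays. All 6 untreated arrays were thus below 0 and all 6 Xrn1 arrays above it.

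The gap was widest at moderate brightness and narrowed at the top of the range. Between means of 6 and 7, the 7118 probe sets without symbol had a median Xrn1 change of 1.06 in uninduced cells and the 9581 single-symbol probe sets of -1.02. From 9 to 10 the medians were 1.22 and -0.10, and from 11 to 12 they were 0.88 and 0.26. From 12 to 13, where 200 probe sets without symbol lie, they were 0.20 and -0.06. In induced cells the medians were 0.92 and -0.44 between 6 and 7 and 0.01 and -0.11 between 12 and 13. The highest single value in the table is 14.08, on probe set 3580800.

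The 3 probe sets with the highest means hardly moved. Probe set 3580800 stood at 13.52, 13.50 and 13.51 on uninduced untreated, 13.66, 14.08 and 13.38 on uninduced Xrn1, 13.43, 13.65 and 13.50 on induced untreated and 13.21, 13.39 and 13.78 on induced Xrn1 arrays. Its nearest named neighbour, 1 ID away, carries BAG5, a co-chaperone of HSP70. Probe set 2380544 lay between 13.01 and 13.55 on all arrays, and probe set 3971689, whose neighbour 2 IDs away carries PTCHD1, between 13.16 and 13.41. For none of the 3 did a limma adjusted p fall under 0.05 in either Xrn1 comparison (lowest 0.661).

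**Figure D3:**
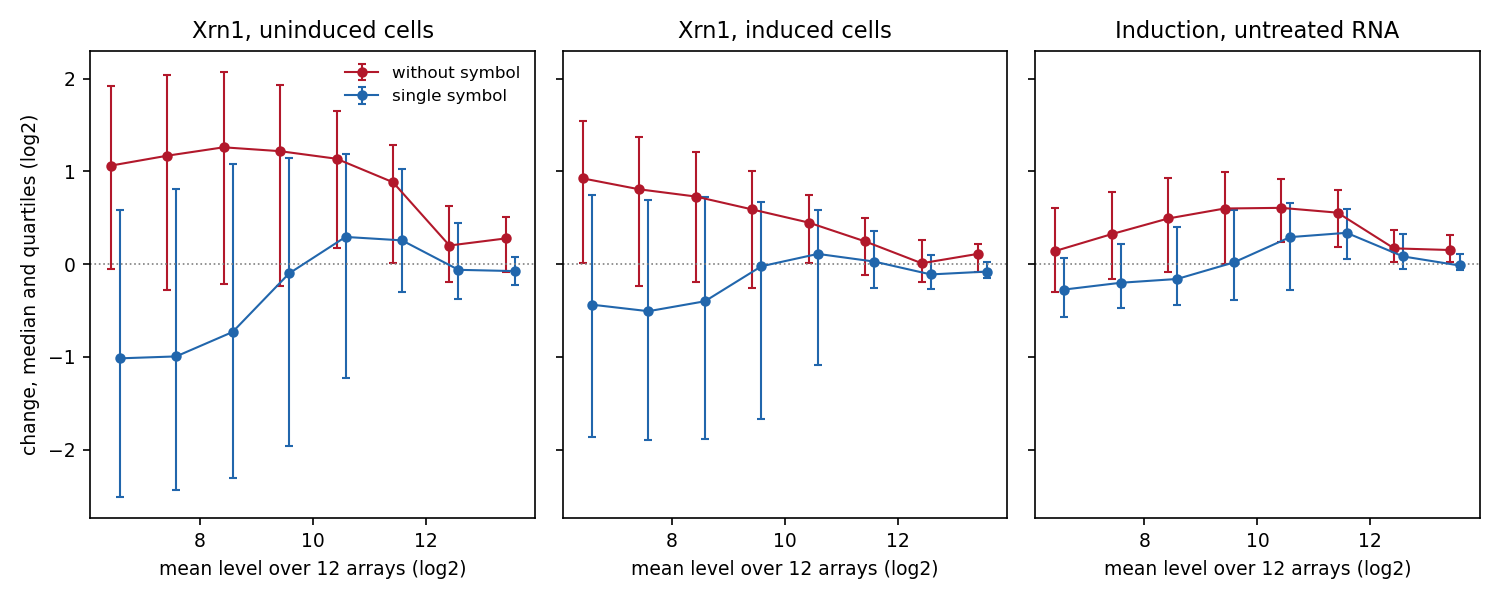
Change (log2; points are medians, bars the quartiles over probe sets) by the mean level over 12 arrays in intervals of 1, for bright probe sets without symbol (red) and with 1 symbol (blue). From left to right the panels show Xrn1 without and with induction, then induction in untreated RNA; the red and blue medians are far apart between 6 and 9 and near each other above 12.

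The 16145 probe sets were not uniform, and their change went with whether bright probe sets stood together in the ID order. Members at most 2 IDs apart were joined into runs, which gave 14672 runs, of which 13601 held a single probe set and 71 held 4 or more, with 410 probe sets in all. Lone probe sets had a median Xrn1 change of 1.23 in uninduced cells, and 6022 (44.3%) rose and 1207 (8.87%) fell. In runs of 2 the median was 0.59, in runs of 3 -0.40 and in runs of 4 -1.34. In runs of 5 to 7 it was -2.05 and in runs of 8 to 18 it was -2.18, where 103 of 138 probe sets fell (74.6%) and 2 rose. The medians in induced cells were 0.82, 0.48, -0.10, -1.05, -1.0 and -1.83 in the same order. The 138 probe sets came from only 12 runs, and neighbouring probe sets are not independent. Runs of 14, 16, 14 and 9 of them lay close together, between IDs 4037574 and 4037746. In uninduced cells 14, 6, 6 and 3 of their probe sets fell.

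Run length was examined after the values had been seen, and it uses the levels only through the mean over all arrays. The medians of lone probe sets and of runs of 4 or more kept opposite signs after centring (1.14 and -2.09 in uninduced, 0.63 and -1.61 in induced cells), after cyclic loess (1.20 and -1.98, 0.75 and -1.45) and without CM5 and CM5X (1.03 and -1.92 in uninduced cells). Centring shifts both medians alike, so it cannot change the gap between them. Median brightness was 7.16 for lone probe sets and 7.61 in runs of 8 to 18.

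**Figure D4:**
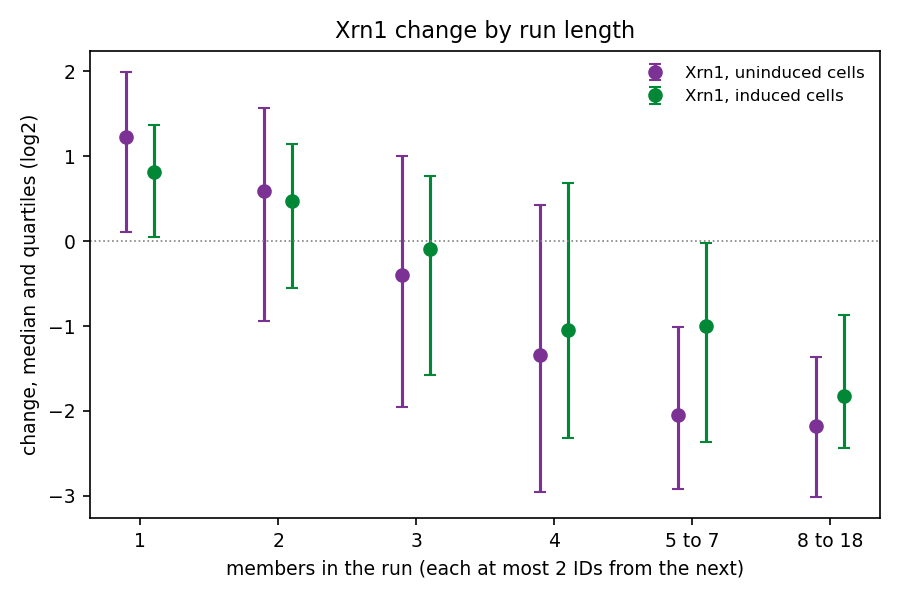
Change with Xrn1 (log2; points are medians, bars the quartiles over probe sets) against the number of bright probe sets without symbol in a run, for uninduced (purple) and induced cells (green). Lone probe sets lie above 0 and runs of 5 or more below it in both.

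Of the 71 runs of 4 or more, 57 had a negative median in uninduced and 55 in induced cells. Every probe set of the run was below 0 in 41 and above 0 in 10 of them in uninduced cells, and in 34 and 10 in induced cells. The longest run held 18 probe sets, from 3476742 to 3476761, and its first lies 8 IDs from a probe set of SCARB1, the HDL receptor. Its median level was 9.24, 9.40 and 8.62 on uninduced untreated arrays and 5.73, 6.09 and 5.52 on uninduced Xrn1 arrays, and 8.62, 8.71 and 8.42 against 6.34, 5.72 and 6.67 in induced cells. The groups lay far apart, and 17 of the 18 probe sets fell in each state (limma, Benjamini-Hochberg), with medians of -3.18 and -2.30. The exception was the first probe set, 3476742, with changes of 0.29 and 0.31.

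The second longest run, 16 probe sets from 4037693 to 4037712, lies 7 IDs from a probe set of CYTB, the mitochondrially encoded cytochrome b. It was less uniform. Its median level was 8.17, 9.22 and 8.18 on uninduced untreated and 7.49, 7.58 and 7.83 on uninduced Xrn1 arrays, and 8.79, 8.72 and 8.74 against 7.58, 7.51 and 7.82 in induced cells. In uninduced cells 6 of the 16 fell and 1 rose, with changes from -4.82 to 1.86, and in induced cells 7 fell and none rose, with changes from -3.91 to -0.49 (limma, Benjamini-Hochberg).

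**Figure D5:**
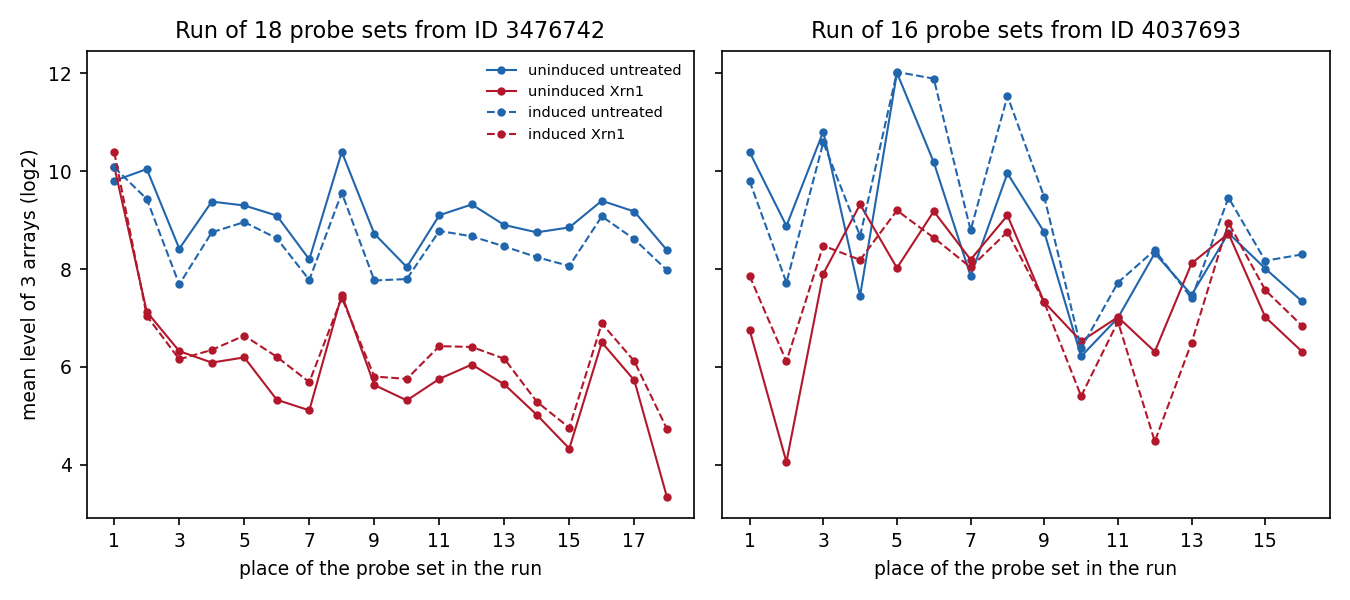
Mean log2 level of 3 arrays for each probe set of the run of 18 (left) and of the run of 16 (right), in ID order, for untreated (blue) and Xrn1 arrays (red) of uninduced (solid) and induced cells (dashed). In the run of 18 the red lines lie below the blue ones at every place but the first; in the run of 16 the solid lines cross, and the dashed red line lies below the dashed blue one throughout.

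The largest change of a run in uninduced cells was that of 4 probe sets from 3765061 to 3765064, the last of them 3 IDs from a probe set of HEATR6. Their median level went from 9.83, 9.85 and 10.03 to 5.12, 4.00 and 5.29 in uninduced cells and from 9.86, 9.78 and 9.43 to 5.77, 5.88 and 7.24 in induced cells, a median change of -5.06 and -3.42. The run of 7 from 2353502 to 2353510 changed by -3.89 and -3.51, and the run of 4 from 3954261 to 3954266 by -3.70 and -2.69. In induced cells the largest were the run of 5 from 2690154 to 2690159 (-3.63) and the run of 10 from 2429301 to 2429313 (-3.58), which had changed by -3.02 and -3.62 in uninduced cells. Every probe set of these 5 runs fell in both states.

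The number of bright neighbours of any kind went with the change in both named and unnamed probe sets. Of the 16145, 67.5% had no other probe set with a mean of at least 6 within 5 IDs, compared with 36.5% of the single-symbol probe sets. Without such a neighbour, the median Xrn1 change in uninduced cells was 1.27 for probe sets without symbol and 0.33 for single-symbol probe sets. With 4 to 6 such neighbours it was -1.73 and -2.28, and with 7 or more it was -2.12 and -2.32. The share that fell rose from 7.82% to 75.7% for probe sets without symbol and from 23.6% to 74.5% for single-symbol probe sets. When intervals of the mean and the number of bright neighbours were both matched, the median difference from single-symbol probe sets went from 1.82 to 0.91 in uninduced and from 1.09 to 0.51 in induced cells.

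The position between named neighbours was described as well. Of the 16145, 4046 (25.1%) had the same symbol on both sides within 10 IDs, as had 20.9% of all probe sets without symbol, and 7334 (45.4%) had no named probe set within 10 IDs on either side, against 54.1%. The first set had a median Xrn1 change of 1.28 in uninduced cells, with 45.6% higher and 6.85% lower, and the second of 1.04, with 41.0% and 15.4%. Where the named probe sets of the symbol on both sides had a median level of 6 or more, which held for 130 probe sets between those of 73 symbols, the median was -0.28, with 42.3% lower. Below a level of 3, which held for 1989 probe sets between those of 1589 symbols, it was 1.34, with 5.48% lower.

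For 2351 of the 4046, the symbol on both sides had bright probe sets of its own. The probe sets without symbol had a median change of 1.26 and the bright probe sets of their neighbouring symbols of 0.32 in uninduced cells, and the first lay above the second in 69.9% of cases. In induced cells the medians were 0.83 and 0.41, and 63.9% lay above. Across these probe sets, which share symbols and arrays, the changes correlated at 0.234 and 0.262.

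Induction of K294A compares cells with and without doxycycline. In untreated RNA no probe set passed in limma with Benjamini-Hochberg adjustment, neither among the 16145 nor in the whole table (background 0% in each direction), where the lowest adjusted p was 0.294. At an unadjusted p under 0.05, 2071 of the 16145 (12.8%) were higher and 148 (0.917%) lower, where 6.68% of all probe sets tested were higher and 7.02% lower. In either direction the share was 13.7% in both. With a trended and robust prior 1 of the 16145 passed. The median change was 0.30, against -0.20 for bright single-symbol probe sets and -0.06 for all tested, and the 3 induced arrays lay above the 3 uninduced ones for 15.3% of the 16145 and below for 5.22%, where 7.40% and 6.76% of all probe sets did. The array medians given above overlap: uninduced untreated replicate 3, at 7.13, lay above induced untreated replicate 2, at 6.96. Without CM5 and CM5X the median change was 0.11. This comparison shares its arrays with both Xrn1 comparisons.

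After Xrn1, the median change with induction was 0.06 for the 16145, 0.10 for bright single-symbol probe sets and 0.14 for all tested. Of the 16145, 4 rose and none fell (limma, Benjamini-Hochberg), where 0.00581% of all probe sets tested rose and 0.000142% fell. Of all, 0.00595% passed in either direction. At an unadjusted p under 0.05, 283 (1.75%) were higher and 208 (1.29%) lower, fewer than the 4.76% and 2.37% of all probe sets tested. The arrays did not overlap for 8.12% on the higher and 5.09% on the lower side, against 13.1% and 5.48% of all probe sets tested. The median turned to -0.05 after centring and -0.06 after cyclic loess, where that of all tested was 0.04 and -0.02. Probe set 4030167, which also led the rises with Xrn1 in induced cells, went from 6.18, 5.45 and 6.88 in uninduced to 9.52, 10.76 and 11.20 in induced Xrn1 samples, a change of 4.33 ± 0.73 (SE; limma adjusted p = 0.0480). Probe set 3585542 went from 4.81, 5.17 and 5.85 to 8.22, 8.59 and 9.21, a change of 3.40 ± 0.50 (SE; limma adjusted p = 0.0113). The others, named because they are few, were 3005862 (from 6.33, 6.94 and 5.95 to 9.27, 9.74 and 9.57) and 3256257 (from 7.74, 7.54 and 7.82 to 10.40, 10.72 and 11.22). The groups did not overlap for any of the 4. On the 6 untreated arrays, which this comparison does not use, the 4 averaged 3.88, 5.73, 5.24 and 5.81 in the order given, all below the limit of 6. When the probe sets were instead chosen on those 6 arrays, 0 of 13950 passed. The 4 rises therefore describe probe sets that reached the limit through Xrn1 arrays and are no result on the set. None passed without induced Xrn1 replicate 1, 2 or 3 or without uninduced Xrn1 replicate 1; 1 passed without uninduced Xrn1 replicate 3, and 2 without uninduced Xrn1 replicate 2 or without uninduced untreated replicate 3, which enters through the shared spread.

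The difference between the Xrn1 effects in induced and uninduced cells had a median of -0.29 over the 16145, 0.19 over the bright single-symbol probe sets and 0.20 over all tested. In limma with Benjamini-Hochberg adjustment 1 of the 16145 passed, where 0.00638% of all probe sets tested passed upwards and 0.00269% downwards, 0.00907% in all. The Xrn1-minus-untreated differences did not overlap for 1.99% on the higher and 4.58% on the lower side, against 4.75% and 3.1% of all probe sets tested. The 1 that passed was probe set 3585542. It stood at 6.72, 6.59 and 6.09 without and at 4.81, 5.17 and 5.85 with Xrn1 in uninduced cells (change -1.19, limma adjusted p = 0.101), and at 4.26, 5.67 and 5.02 without and 8.22, 8.59 and 9.21 with Xrn1 in induced cells (change 3.69, limma adjusted p = 3.88e-05). Without the induced Xrn1 arrays its mean was 5.58, so it reached the limit of 6 through the group in which it was high. The interaction uses all 12 arrays and leaves none on which to choose the probe sets. HERC2P7, a pseudogene, is the symbol of its named neighbour 9 IDs away.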

How the data were processed

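Per the submitters' processing notes, the authors made the deposited log2 values with RMA in the oligo package. Their version, the array annotation and the genome build were not stated there. The deposited table holds 1 log2 value per probe set and array for 12 samples, and every column of values was mapped to a sample. Arrays have no read depth, so 3 arrays per group set the precision. A platform table gave 1 symbol for 357604 probe sets, several for 15322 and none for 1038473. Set against RefSeq (GRCh38.p14), 16472 of 19560 distinct symbols were in use, 2966 were replaced by way of a synonym and 122 stayed as given.

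The values were not normalised again. Probe sets with a mean above 2.04, 705699 in all, were fitted with limma 3.58.1 (R 4.3.3; lmFit, eBayes) over 4 group means, with 8 residual and 17.8 prior degrees of freedom, with a Benjamini-Hochberg adjustment across the tested probe sets and a threshold of 0.05. The fit was tested on simulated data. Comparisons with single-symbol probe sets used all of those in the same interval of the mean and carry no test. Groups follow the labels; CM1X, titled replicate 2 like CM2X, was taken as replicate 1 by accession order. Probe sets were named by rule: the 2 largest rises and falls per contrast among those that passed with groups apart, the 3 highest means, the 2 longest runs and the 3 runs of at least 4 with the largest median change with Xrn1 in each induction state. Neighbour symbols are given only within 10 IDs, and 1 such symbol was left out. The probe sets, their rule and the tests were chosen with earlier results of these data known, so patterns already seen there are no independent support. Genome positions and probe sequences were not used here.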

Additional observations from a re-analysis of the deposited data

Results flagged for a closer look

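Probe set 3585542, picked out by the test of that difference, differed between the induction states in its response to Xrn1: the difference of both Xrn1 changes was 4.88 ± 0.71 on the log2 scale (SE; limma adjusted p = 0.0193, Benjamini-Hochberg over 705699 probe sets), with every Xrn1 array above every untreated array in induced cells and below it in uninduced cells. It was among the 16145 only through the induced Xrn1 arrays, on which it was high, since its mean over the other 9 arrays was 5.58, below the limit of 6. The value is therefore a description. It no longer passed without CM5 and CM5X, or when induced untreated replicate 1, induced Xrn1 replicate 1, 2 or 3, or uninduced untreated replicate 2 or 3 was left out, where 0 of the 16145 probe sets passed. Without induced untreated replicate 3, 51 of the 16145 passed, 23 higher and 28 lower. Of all 705699 probe sets tested, 28315 were then higher and 12529 lower, so the 51 do not set these probe sets apart.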

How the results depend on the processing

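For Xrn1 in uninduced cells, 8614 of the 16145 probe sets passed. The count stayed within 1.5 times this under every alternative run except a limit of 7 on the mean, which leaves 9027 probe sets and gave 5002; with 1 array left out it was 6170 to 9075. For Xrn1 in induced cells, 4206 passed. The count was 2782 without the filter on dim probe sets, where more probe sets share the adjustment, 2213 with the own spread of each probe set, 1972 with a limit of 7, and 1140 to 5451 with 1 array left out. For induction in untreated RNA, 0 passed except for 1 with a trended and robust prior, and 0 to 0 with 1 array left out. For induction after Xrn1, 4 passed; the counts were 11 with that prior, 0 with own spread, 585 with array weights, 1 without CM5 and CM5X, 2 and 1 with limits of 6.5 and 7, 0 with the probe sets chosen on the 6 untreated arrays (added after the data had been seen), and 0 to 5 with 1 array left out. For the interaction, 1 passed; the counts were 5 without the filter, 8 with the trended prior, 0 with own spread, 122 with array weights, 4 with the CM number as replicate block, 0 without CM5 and CM5X, 0 with limits of 6.5 or 7, and 0 to 51 with 1 array left out. The largest of these counts went with larger counts over all probe sets tested, though not every count did. Without uninduced Xrn1 replicate 1, 491 of all probe sets tested were higher and 1148 lower for the interaction, while 2 of the 16145 passed. With array weights, 36717 of all 705699 probe sets tested were higher and 25487 lower for induction after Xrn1. For the interaction, array weights gave 12958 higher and 10626 lower among all probe sets tested. Leaving out induced untreated replicate 3, which gave the 51, made it 28315 and 12529. The cause was not tested.

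The median difference from single-symbol probe sets of the same mean kept its direction for both Xrn1 comparisons under every alternative run, at 1.70 to 2.02 in uninduced and 0.91 to 1.26 in induced cells with 1 array left out. Matching of bright neighbours as well, added after the data had been seen, gave 0.91 and 0.51. Centring and loess shift probe sets of equal mean alike and so leave this difference nearly as it was by construction. Choosing the probe sets on the 6 arrays that a comparison does not use gave 1.86 and 1.08.

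Arrays with the same CM number or replicate number did not deviate together more than other arrays of different groups. The correlations of CM pairs were -0.19 to 0.02, and those of other pairs with the same replicate number -0.40 to 0.18. Pairs that shared neither number had correlations of -0.47 to 0.51. With the replicate block, 8132 and 3715 probe sets passed for Xrn1 in uninduced and induced cells, 0 for induction in untreated RNA, 4 for induction after Xrn1 and 1 for the interaction; with the CM number as replicate block, 7816 and 3568 passed for Xrn1.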
